A study of Mus musculus with 24 samples.

Results

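The transcript levels of 8 transcription factors that set intestinal identity and differentiation were examined, namely Cdx1, Cdx2, Gata4, Gata6, Hnf4a, Hnf4g, Klf4 and Klf5. They were taken as a list of named genes with no threshold on a measured value, and all 8 were found among the 45706 genes of the count tables and passed the filter on low counts in every comparison. RNA had been sequenced from 24 libraries of C57BL/6N mouse intestinal organoids, which are crypt-derived epithelial cultures grown in a gel, 12 from the small intestine (SI, proximal part) and 12 from the colon (COL). The genotypes were BraffloxV600E/+;Villin::CreERT2 (BRAF), Trp53LSL-R172H/+;Villin::CreERT2 (p53) and the combination of both alleles (BRAFp53), so that all organoids, controls included, carried the Villin-driven tamoxifen-inducible Cre. Induced organoids (on) received 4-hydroxytamoxifen (4-HT) for 24 h, at 0.5 µM in SI and 3.5 µM in COL, which switched on BRAFV600E, a kinase that signals without input, and p53R172H, a mutant form of the tumour suppressor p53. Non-induced organoids (off) received ethanol. RNA was isolated on day 8 in SI and on day 3 in COL. Every genotype was represented by 1 donor culture in each tissue, with 2 off and 2 on libraries, which gave 12 groups of 2, so that a difference between genotypes is also one between cultures. Per the methods of the study, only COL organoids were grown with added Wnt3a and the GSK3 inhibitor CHIR99021.

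Libraries held 51.2 to 78.2 M counts in COL and 44.4 to 68.2 M in SI (M, 1e6), and 3 counts, taken as the limit of detection, stood for at most 0.0878 counts per 1000000 counts (CPM). This limit covers counting error only. Markers of epithelium were abundant in every library (9410 to 28400 CPM summed over 6 genes in COL, 8700 to 19200 CPM in SI), and 10 stromal and immune markers summed to 0.83 to 2.7 CPM in COL and 0.271 to 1.45 CPM in SI. The colon markers Car1 and Retnlb and the small intestine marker Lct separated the off cultures as labelled. In contrast, Hoxb13 and Hoxd13, genes of the distal colon, were at or under 0.217 CPM in the off cultures of COL, Mptx2 was at 0 there and at most 0.357 CPM in SI, and Lyz1 was higher in COL (272 to 1050 CPM per culture) than in SI (59.6 to 145 CPM). Aqp8, Car4, Fabp6 and Defa24 overlapped between the off cultures of the tissues. Defa24, for example, had 108 to 308 CPM per culture in COL and 64.9 to 193 CPM in SI. Sex-linked transcripts placed the SI p53 and SI BRAFp53 cultures apart from the other 4 cultures, so sex of the donor differs along with tissue in the p53 and BRAFp53 cultures, and along with genotype between SI BRAF and SI BRAFp53. The methods of the study name 3 donor mice, listed by genotype, and do not say how cultures of a genotype came to differ in sex. A single library stood apart from its group. In SI BRAF on replicate 1, Xist, which only cells with 2 X chromosomes express, reached 17.1 CPM, against 0.234 to 0.471 CPM in the other 3 libraries of that culture and 115 to 166 CPM in the 8 libraries of the SI p53 and BRAFp53 cultures. Called values of the 8 factors that use this culture are therefore also given without it.

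CDX1 and CDX2 are homeodomain factors that hold the intestinal fate of the epithelium against gastric fates. GATA4 marks the proximal small intestine, where it switches on genes of the jejunum and keeps genes of the ileum off, and GATA6 is found along the whole intestine. HNF4A and HNF4G are nuclear receptors that bind largely the same enhancers and drive the absorptive, lipid-handling programme of enterocytes. KLF4 is a zinc finger factor of post-mitotic cells, known for goblet cell differentiation, whereas the related KLF5 is most abundant in dividing crypt cells.

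Promoter windows are shown for the 3 members that had an entry in the table of RefSeq promoters used here (GRCm38.p6), from 250 bases before to 50 bases after the annotated start, and with letters that match a short motif in capitals. Of these, Klf4 was called higher in 3 of the 4 arms with BRAFV600E, Cdx2 differed between the tissues without a response that passed the test, and Hnf4a has a pair of promoters (the upstream P2 and the downstream P1) whose isoforms a count per gene adds up. The windows lie at chr4:55532426-55532725 (minus strand) for Klf4, chr5:147307200-147307499 (minus strand) for Cdx2, and chr2:163506607-163506906 and chr2:163546905-163547204 (both plus strand) for P2 and P1 of Hnf4a.
Klf4: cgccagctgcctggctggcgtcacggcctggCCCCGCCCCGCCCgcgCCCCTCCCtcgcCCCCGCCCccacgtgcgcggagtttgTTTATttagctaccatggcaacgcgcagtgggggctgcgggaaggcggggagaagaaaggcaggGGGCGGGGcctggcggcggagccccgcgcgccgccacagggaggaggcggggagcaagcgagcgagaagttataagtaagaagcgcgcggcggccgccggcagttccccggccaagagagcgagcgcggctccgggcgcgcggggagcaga
Cdx2: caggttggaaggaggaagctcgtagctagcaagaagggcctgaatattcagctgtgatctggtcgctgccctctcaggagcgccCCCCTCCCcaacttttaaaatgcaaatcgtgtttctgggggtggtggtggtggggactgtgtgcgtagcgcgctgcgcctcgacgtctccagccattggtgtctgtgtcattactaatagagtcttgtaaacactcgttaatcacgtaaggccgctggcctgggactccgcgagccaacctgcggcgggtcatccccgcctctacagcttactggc
Hnf4a, P2: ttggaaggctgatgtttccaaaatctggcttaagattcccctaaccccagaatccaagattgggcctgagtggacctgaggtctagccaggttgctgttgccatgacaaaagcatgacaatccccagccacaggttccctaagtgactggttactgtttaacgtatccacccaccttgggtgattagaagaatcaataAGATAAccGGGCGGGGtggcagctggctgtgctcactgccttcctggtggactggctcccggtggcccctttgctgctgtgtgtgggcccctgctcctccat
Hnf4a, P1: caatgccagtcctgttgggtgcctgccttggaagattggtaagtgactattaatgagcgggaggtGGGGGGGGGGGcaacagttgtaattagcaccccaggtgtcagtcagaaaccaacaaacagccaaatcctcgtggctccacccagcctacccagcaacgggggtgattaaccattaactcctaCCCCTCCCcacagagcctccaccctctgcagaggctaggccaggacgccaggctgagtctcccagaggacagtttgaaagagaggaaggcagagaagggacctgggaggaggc
The letters TTTAT stood for a CDX site and AGATAA for a GATA site. The letters CAAAGTC stood for an HNF4 site and CCCCNCCC for a KLF site, where N is any base. For AP-1, a factor downstream of ERK, the letters were TGA, any base and TCA, in a row. Both strands were searched, and overlapping matches were each counted. The Klf4 window held 5 matches to the KLF letters and 1 to the CDX letters, and 74.3% of its bases were G or C. The Cdx2 window held 1 KLF match, Hnf4a P2 held 1 GATA and 1 KLF match, and Hnf4a P1 held 5 KLF matches, 4 of them overlapping in a run of G. No letters of the HNF4 or AP-1 motif were found in these 4 windows. Of all 32851 promoter windows, 33.2% held the KLF letters, 40% the CDX letters, 11.2% the GATA letters, 4.44% the HNF4 letters and 7.81% the AP-1 letters, so that a match is no more than a description.

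Next, the baseline of each factor was determined in off organoids. Off counts were added up per culture, and 3 COL cultures were tested against 3 SI cultures with the edgeR quasi-likelihood test, with Benjamini-Hochberg (BH) adjustment over all genes tested. Of 17789 genes, 29.6% passed the threshold of 0.05 in this comparison, and of the 8 members 3 did, with Klf4 and Cdx2 higher and Hnf4g lower in COL. For 6 of the 8 members the 6 off libraries of one tissue lay apart from the 6 of the other, and only Hnf4a and Klf5 overlapped. The plot of levels by library shows all values.

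**Figure D1:**
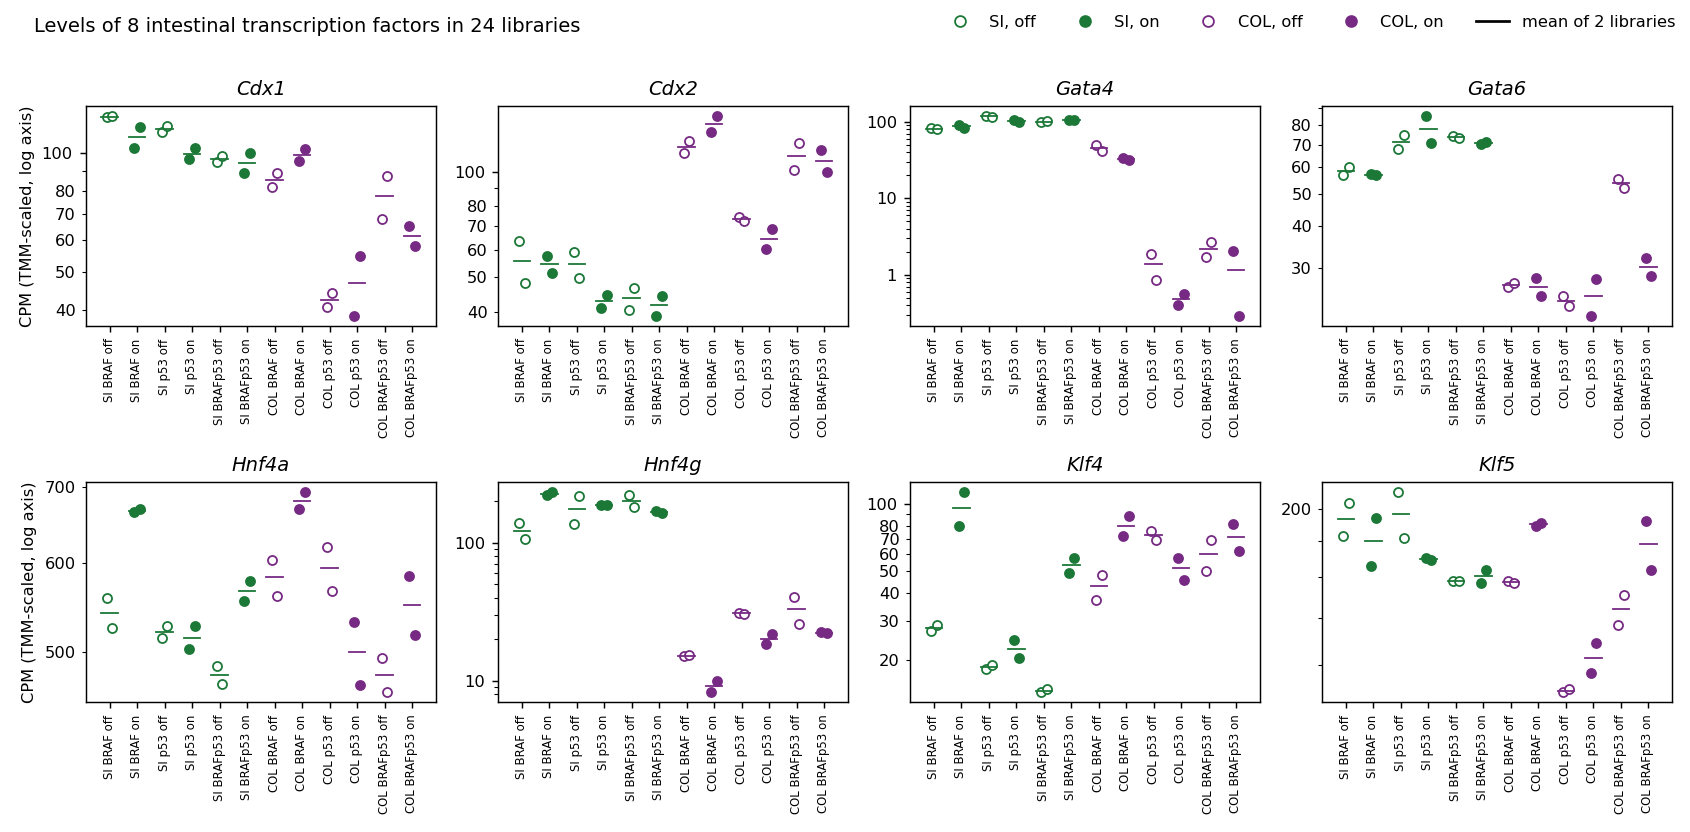
CPM of each factor (log axis, one panel per gene) in the 24 libraries, with SI in green, COL in purple, off as open and on as filled circles, and a line at the mean of the 2 libraries. Hnf4g and Gata6 lay lower in all COL than in all SI libraries, Cdx2 lay higher in COL than in SI among off libraries, Klf4 rose from at most 28.7 to at least 49.2 CPM with BRAFV600E in SI, and Gata4 of the COL BRAF culture (32.1 to 49.4 CPM) stood far above the other COL libraries.

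The caudal factors had opposite signs between the tissues, of which the higher level of Cdx2 in COL passed the test. Cdx2 (ENSMUSG00000029646, GRCm38 chromosome 5, 147300805 to 147307270, minus strand) had off levels of 118, 73.3 and 111 CPM in the COL BRAF, p53 and BRAFp53 cultures and of 55.8, 54.5 and 43.6 CPM in the same order in SI. The 6 COL libraries (72.3 to 122 CPM) lay above the 6 SI libraries (40.4 to 63.5 CPM), and the log2 fold change of COL against SI was 1.0 (SE 0.20, edgeR adjusted p = 0.0115), a call that was lost without the SI BRAFp53 culture (0.89, edgeR adjusted p = 0.0543). Cdx1 (ENSMUSG00000024619, chromosome 18, 61018862 to 61036199, minus strand) had off levels of 85.5, 42.4 and 77.8 CPM in the COL cultures and of 123, 115 and 96.4 CPM in SI. Here the COL libraries (40.7 to 88.9 CPM) lay below the SI libraries (94.6 to 124 CPM), yet the log2 fold change of -0.68 (SE 0.26) did not pass the test (edgeR adjusted p = 0.0903), and leaving out a culture moved it between -0.90 (without COL BRAF, edgeR adjusted p = 0.0487) and -0.46 (without COL p53, edgeR adjusted p = 0.0581). By DESeq2 the difference was called, with an adjusted p of 0.0358. For both genes the COL cultures spread more widely than the SI cultures, and the COL p53 culture was the lowest of COL.

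Gata4 (ENSMUSG00000021944, chromosome 14, 63198922 to 63271692, minus strand) differed between cultures of one tissue. In SI its off levels were 81.6, 117 and 99.3 CPM in the BRAF, p53 and BRAFp53 cultures. In COL they were 1.38 and 2.2 CPM in the p53 and BRAFp53 cultures, but 45.7 CPM in the BRAF culture, where the libraries had 49.4 and 42 CPM off and 34 and 32.1 CPM on. Thus a COL culture held 45.9% of the mean SI level while the others held 1.8%, and both its off and its on libraries showed it. Over all 3 COL cultures the log2 fold change was -2.57 with an SE of 1.23 (edgeR adjusted p = 0.157), and without the COL BRAF culture it was -5.79 (edgeR adjusted p = 0.000542). In limma-voom the difference passed with all cultures (log2 fold change -4.26, adjusted p = 0.0176).

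Because GATA4 is a regional factor, the genes around it were read in the same COL BRAF culture, chosen from the lists after its Gata4 level had been seen. Fabp1, a fatty acid binding protein of enterocytes and a GATA4 target, had 87.3 CPM in the off libraries of this culture, 0.504 and 0.167 CPM in the COL p53 and BRAFp53 cultures, and 3730 to 11400 CPM in SI. Npc1l1, the cholesterol uptake receptor, had 31.7 CPM against 2.98 and 3.6 CPM, and Mttp, which loads lipid onto apolipoprotein B, 136 CPM against 13.8 and 21.7 CPM. Sis, the brush-border sucrase-isomaltase, had 418 CPM against 42.9 and 130 CPM. These values lay between those of the other COL cultures and those of SI. Other genes of the lists did not, such as the fatty acid binding protein gene Fabp2 (164 CPM against 362 and 190 CPM, and 1280 to 2680 CPM in SI), and neither did Hnf4g, which was lowest in this culture. Lct, the lactase gene and likewise a GATA4 target, was not raised (0.153 CPM against 0.147 and 0.111 CPM in COL, and 19.3 to 63.8 CPM in SI). Genes of the colon were at the low end in the same culture, with Car1, a carbonic anhydrase, at 1340 CPM against 15800 and 3890 CPM, and Car4, another of that family, at 2.09 CPM against 98.6 and 27.8 CPM. Car1 was listed at 0 in all SI off libraries, whereas Car4 of this culture was within the range of the SI cultures (0.858 to 4.17 CPM). Genotype and donor cannot be told apart in this difference, since each genotype of a tissue was 1 culture.

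**Figure D2:**
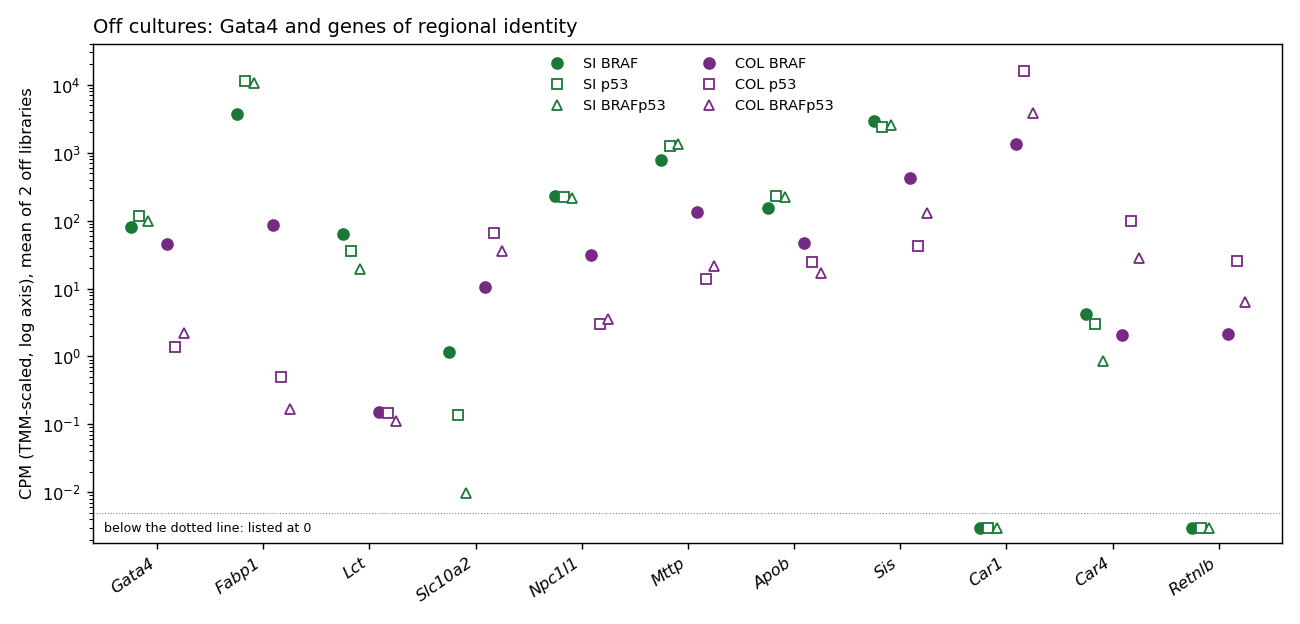
CPM (log axis, mean of the 2 off libraries of a culture) of Gata4 and 10 genes of regional identity, with SI cultures in green and COL cultures in purple, and the BRAF cultures as filled circles. In the COL BRAF culture Gata4, Fabp1, Npc1l1, Mttp, Apob and Sis were nearer to SI than in the other COL cultures, Car4 and Retnlb were lowest among COL, and Lct stayed at the level of COL.

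Gata6 (ENSMUSG00000005836, chromosome 18, 11052064 to 11085635, plus strand) had off levels of 26.9, 24 and 53.7 CPM in the COL BRAF, p53 and BRAFp53 cultures and of 58.3, 71.3 and 73.7 CPM in SI. All COL libraries (23.2 to 55.3 CPM) were below all SI libraries (56.8 to 74.7 CPM), but the COL BRAFp53 culture was close to SI, and the log2 fold change of -0.94 (SE 0.30) missed the threshold (edgeR adjusted p = 0.0563). It passed with RLE size factors, with either other filter, in DESeq2 and in limma-voom (adjusted p = 0.00983 to 0.046 in these), and without the COL BRAFp53 culture, where it was -1.39 (edgeR adjusted p = 0.00861). Of the exon bases of Gata6, 1.43% are shared with an overlapping gene on the other strand, 1010001N08Rik, and the use of strand in counting is not given in the sources used here.

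Of the nuclear receptors, Hnf4a (ENSMUSG00000017950, chromosome 2, 163506808 to 163572910, plus strand) differed between the tissues by less than the spread of the cultures. Its off levels were 583, 594 and 477 CPM in COL and 542, 521 and 477 CPM in SI (log2 fold change 0.13 with an SE of 0.15, edgeR adjusted p = 0.544). Hnf4g (ENSMUSG00000017688, chromosome 3, 3508030 to 3658052, plus strand), its paralogue, was lower in COL, with 15.2, 30.8 and 33.2 CPM against 123, 177 and 202 CPM in SI. The highest COL off library (40.6 CPM) was below the lowest SI off library (106 CPM), and the log2 fold change was -2.63 (SE 0.34, edgeR adjusted p = 0.00314). This call was kept without any 1 of the 6 cultures (log2 fold change -2.83 to -2.37) and in all other settings.

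Klf4 (ENSMUSG00000003032, chromosome 4, 55527143 to 55532466, minus strand) was higher in COL, with off levels of 42.7, 72.4 and 59.7 CPM against 27.8, 18.6 and 14.6 CPM in SI (log2 fold change 1.54 with an SE of 0.29, edgeR adjusted p = 0.00984). All COL off libraries (37.3 to 76 CPM) lay above all SI off libraries (14.4 to 28.7 CPM). Klf5 (ENSMUSG00000005148, chromosome 14, 99298691 to 99315036, plus strand) had 158, 111 and 144 CPM in COL and 193, 196 and 158 CPM in SI, and its log2 fold change of -0.39 (SE 0.17) did not pass the test (edgeR adjusted p = 0.132). In bulk libraries such as these, fewer cells of a type and less RNA per cell cannot be told apart. For the tissues, the dose of 4-HT does not enter the off libraries, but the medium and the day of RNA isolation cannot be told apart from the tissue.

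To compare the factors with each other, CPM was divided by the length of all exons of a gene in kb (RPKM, mean ± SD of 3 off cultures). Neighbours whose means lay closer than the sum of their SDs are given as not differing beyond their spread. In SI, Hnf4a had the highest level (106 ± 6.89 RPKM), followed by Cdx1 (63.7 ± 7.85 RPKM) and Hnf4g (63.5 ± 15.4 RPKM), which did not differ beyond their spread. Klf5 (35.1 ± 4.1 RPKM), Gata4 (25.5 ± 4.6 RPKM) and Cdx2 (22.7 ± 2.97 RPKM) came next, of which Gata4 and Cdx2 did not differ beyond their spread, and Gata6 (10.4 ± 1.27 RPKM) and Klf4 (6.68 ± 2.22 RPKM) were lowest. In COL, Hnf4a was again highest (114 ± 13.3 RPKM). Cdx2 (44.5 ± 10.6 RPKM) and Cdx1 (39.2 ± 13.1 RPKM) were next and did not differ beyond their spread, and neither did Cdx1 from Klf5 (26.4 ± 4.68 RPKM) nor Klf5 from Klf4 (19.1 ± 4.88 RPKM). Hnf4g (10 ± 3.72 RPKM), Gata6 (5.36 ± 2.51 RPKM) and Gata4 (4.21 ± 6.49 RPKM) were at the bottom of the COL order, and neither pair of neighbours among them differed beyond its spread. Cdx1 was above Cdx2 in each SI culture (55.1 to 70.5 against 19.3 to 24.7 RPKM) and below it in each COL culture (24.2 to 48.8 against 32.4 to 52 RPKM).

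The response of each factor to induction was then tested within a tissue, with all 12 libraries of the tissue in one edgeR fit and BH adjustment over all genes tested. BRAFV600E alone changed 31.7% of 16856 genes in SI and 19.9% of 18972 genes in COL. Among the 8 members, 3 were called in SI BRAF organoids (Klf4, Hnf4g and Hnf4a, all higher) and 2 in COL BRAF organoids (Klf4 higher, Hnf4g lower). In BRAFp53 organoids, 11.5% of all genes and 1 member (Klf4, higher) were called in SI, and 17.7% of all genes and 1 member (Gata6, lower) in COL. In p53 organoids, 0% of all genes were called in SI (0 of 16856 by edgeR, with 873 at an unadjusted p under 0.05, 65 genes by DESeq2 and 1 by limma-voom) and 0.142% in COL. Under the filter on low counts, no member was called in p53 organoids by edgeR, DESeq2 or limma-voom. Without this filter, edgeR called Gata4, Hnf4g and Klf4 in COL. At an unadjusted edgeR p under 0.05 there were 4 members in COL (Gata4, Hnf4a, Hnf4g and Klf4) and 1 in SI (Cdx2). With 8 members, these counts are near the shares of all genes called. Cdx1, Cdx2, Gata4 and Klf5 were not called in any of the 6 comparisons.

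**Figure D3:**
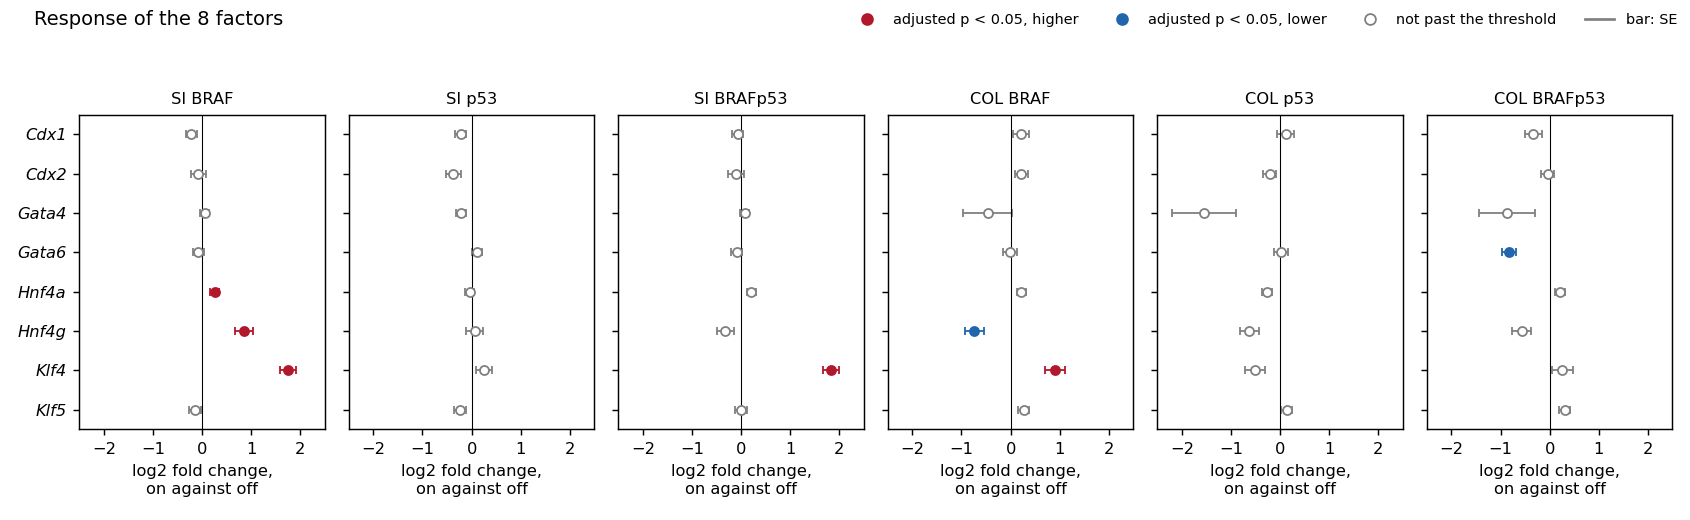
Log2 fold change of on against off for the 8 factors (dot) with its SE (bar), one panel per tissue and genotype. Red marks an edgeR adjusted p under 0.05 with a higher, blue with a lower level in on libraries. Klf4 is red in SI BRAF, SI BRAFp53 and COL BRAF, Hnf4g is red in SI BRAF and blue in COL BRAF, Gata6 is blue in COL BRAFp53, and the p53 panels hold open dots only.

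Klf4 rose in 3 of the 4 BRAF arms, by more in SI than in COL. In SI BRAF organoids its libraries had 26.9 and 28.7 CPM off and 80 and 113 CPM on, and in SI BRAFp53 organoids 14.4 and 14.8 CPM off and 49.2 and 57.4 CPM on. Every on library of these arms was above every off library of SI. The log2 fold changes were 1.75 (SE 0.16, edgeR adjusted p = 4.29e-06) and 1.83 (SE 0.16, edgeR adjusted p = 1.05e-05), and their difference was 0.08 (SE 0.22, edgeR adjusted p = 0.88). Without SI BRAF on replicate 1, the library with Xist, the first of them was 1.98 (edgeR adjusted p = 6.83e-07). In COL BRAF organoids Klf4 had 37.3 and 48.2 CPM off and 71.8 and 88.2 CPM on (log2 fold change 0.90 with an SE of 0.21, edgeR adjusted p = 0.00951). That call was lost without COL BRAF off replicate 1 (log2 fold change 0.72, edgeR adjusted p = 0.0906) and without COL BRAF on replicate 2 (0.73, edgeR adjusted p = 0.0721). In COL BRAFp53 organoids the libraries overlapped, with 50.1 and 69.3 CPM off and 81.1 and 61.7 CPM on (log2 fold change 0.26 with an SE of 0.21, edgeR adjusted p = 0.427), and in COL p53 organoids they had 76 and 68.8 CPM off and 57.3 and 45.8 CPM on (-0.51, SE 0.21, edgeR adjusted p = 0.514).

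As Klf4 started from a higher level in COL, its responses were also compared between the tissues, in a fit of all 24 libraries. The BRAF response was lower in COL than in SI by 0.89 on the log2 scale (SE 0.27, edgeR adjusted p = 0.0426), where 10.7% of 19673 genes were called. The BRAFp53 response fell by 1.61 from SI to COL (SE 0.28, edgeR adjusted p = 0.00308), where 3.52% of genes were called. The first of these rested on single libraries: it did not pass without 1 of 13 libraries (log2 difference -1.12 to -0.62 over all 24 fits without a library, edgeR adjusted p up to 0.216), nor in limma-voom (-0.85, adjusted p = 0.0608) or with the libraries of these cultures alone (edgeR adjusted p = 0.0645). Without SI BRAF on replicate 1 it was -1.12 (edgeR adjusted p = 0.0147). It also did not pass with a replicate block. The second difference, that of the BRAFp53 responses, passed in every setting. The induced levels themselves were 80 to 113 CPM in SI BRAF, 49.2 to 57.4 CPM in SI BRAFp53, 71.8 to 88.2 CPM in COL BRAF and 61.7 to 81.1 CPM in COL BRAFp53, so that the on libraries of the tissues spanned a like range while the off libraries did not. Dose, medium and day differ with the tissue and cannot be told apart from it.

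Klf5, the other Krüppel-like factor of the list, did not pass the test in any arm as fitted. In SI BRAF organoids it had 183 and 204 CPM off and 166 and 194 CPM on (log2 fold change -0.15 with an SE of 0.12, edgeR adjusted p = 0.353). In COL it had 158 and 157 CPM off and 189 and 191 CPM on in BRAF organoids (0.27, SE 0.11, edgeR adjusted p = 0.104), and 137 and 151 CPM off and 192 and 164 CPM on in BRAFp53 organoids (0.31, SE 0.11, edgeR adjusted p = 0.07). In both COL arms the on libraries lay above the off libraries without passing the test. The COL BRAF value passed when that culture was fitted alone (0.28, edgeR adjusted p = 0.0372). The COL BRAFp53 value passed in DESeq2 (adjusted p = 0.0243), and without COL BRAFp53 on replicate 2 or either COL p53 on library (0.43, 0.32 and 0.32, edgeR adjusted p = 0.0379, 0.049 and 0.0495). Without COL BRAFp53 on replicate 1 it was 0.20 (edgeR adjusted p = 0.38).

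Hnf4g responded in opposite directions in the BRAF cultures of the tissues. This was not seen in BRAFp53 organoids, where its response in COL less that in SI was -0.29 (SE 0.28, edgeR adjusted p = 0.659). In SI BRAF organoids it had 139 and 106 CPM off and 222 and 232 CPM on (log2 fold change 0.85 with an SE of 0.18, edgeR adjusted p = 0.00256). In COL BRAF organoids it had 15 and 15.3 CPM off and 8.29 and 9.91 CPM on (-0.74, SE 0.19, edgeR adjusted p = 0.0179). Without SI BRAF on replicate 1 the rise in SI was 0.88 (edgeR adjusted p = 0.00584). The on libraries were thus above the off libraries in SI and below them in COL, and the difference of the responses, COL less SI, was -1.63 (SE 0.29, edgeR adjusted p = 0.00104). This difference was called in every setting, and without SI BRAF on replicate 1 it was -1.66 (edgeR adjusted p = 0.00224). The fall in COL alone was lost without COL BRAF off replicate 1 or 2 or without COL BRAF on replicate 1 (log2 fold change -0.76, -0.72 and -0.63, edgeR adjusted p = 0.0653, 0.0783 and 0.142).

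In SI, the Hnf4g response was lower in the BRAFp53 than in the BRAF culture. In SI BRAFp53 organoids Hnf4g had 222 and 181 CPM off and 169 and 163 CPM on (log2 fold change -0.32 with an SE of 0.18, edgeR adjusted p = 0.302), and in SI p53 organoids 137 and 216 CPM off and 186 and 187 CPM on (0.06, SE 0.18, edgeR adjusted p = 1). The BRAFp53 response less the BRAF response was -1.16 (SE 0.25, edgeR adjusted p = 0.0119), with 8.2% of all genes called in this comparison. It was lost without SI BRAF off replicate 2 (-0.99, edgeR adjusted p = 0.0669) and without SI BRAFp53 off replicate 1 (-1.02, edgeR adjusted p = 0.0623), but not without SI BRAF on replicate 1 (-1.19, edgeR adjusted p = 0.0143), and the off libraries of the 3 SI cultures spanned 106 to 222 CPM. In COL, Hnf4g had 31.2 and 30.3 CPM off and 18.5 and 21.9 CPM on in p53 organoids (-0.63, SE 0.19, edgeR adjusted p = 0.293), and 40.6 and 25.8 CPM off and 22.4 and 22.2 CPM on in BRAFp53 organoids (-0.57, SE 0.19, edgeR adjusted p = 0.056). The on libraries were below the off libraries in all 3 COL cultures, and only the BRAF culture passed the test. The BRAFp53 value passed with no filter on low counts, with a minimum of 10 counts in every library and in DESeq2 (adjusted p = 0.0172, 0.0385 and 0.0283), and it moved with the off library left out, with -0.85 without replicate 2 (edgeR adjusted p = 0.0085) and -0.21 without replicate 1 (edgeR adjusted p = 0.464). In COL the responses of BRAFp53 and BRAF organoids differed by 0.17 (SE 0.27, edgeR adjusted p = 0.791), in a comparison in which 0.907% of all genes and 0 members were called by edgeR. There 3 members (Gata6, Cdx1 and Klf4) had an unadjusted p under 0.05, and DESeq2 called 1 and limma-voom 0.

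Hnf4a, the paralogue of Hnf4g, rose in SI BRAF organoids by a smaller amount. In SI BRAF organoids it had 559 and 525 CPM off and 666 and 669 CPM on (log2 fold change 0.26 with an SE of 0.09, edgeR adjusted p = 0.0409). This call did not hold without SI BRAF on replicate 1 (0.26, edgeR adjusted p = 0.079), nor without the other SI BRAF libraries, SI BRAFp53 off replicate 1 or SI p53 off replicate 1 (0.22 to 0.29, edgeR adjusted p = 0.0618 to 0.197). It was also lost with no filter on low counts and with the SI BRAF libraries fitted alone (edgeR adjusted p = 0.15 and 0.197), and with a replicate block. In the other BRAF arms the log2 fold changes were 0.21 (SI BRAFp53), 0.22 (COL BRAF) and 0.21 (COL BRAFp53), with SEs of 0.09 to 0.10 and edgeR adjusted p of 0.154 to 0.198. In each of these 4 arms both on libraries were above both off libraries.

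Gata6 fell in COL BRAFp53 organoids, from 55.3 and 52.1 CPM off to 32.3 and 28.5 CPM on (log2 fold change -0.82 with an SE of 0.14, edgeR adjusted p = 0.00219). Its off level in this culture was the highest of COL, and its on level was just above the range of the other COL libraries (21.7 to 28.2 CPM). In COL BRAF organoids it had 26.5 and 27.2 CPM off and 28.2 and 24.8 CPM on (-0.02, SE 0.14, edgeR adjusted p = 0.948), yet the BRAFp53 response less the BRAF response, at -0.80 (SE 0.20), did not pass the threshold (edgeR adjusted p = 0.0748). It passed with no filter on low counts, with a minimum of 10 counts in every library and in DESeq2 (adjusted p = 0.0297, 0.0494 and 0.00829). The SI BRAFp53 libraries had 74.2 and 73.2 CPM off and 70.5 and 71.4 CPM on, and COL less SI was -0.76 (SE 0.17, edgeR adjusted p = 0.0193, but not called with a replicate block). This last value lost its call without any 1 of 5 libraries of the BRAFp53 cultures (-0.77 to -0.64, edgeR adjusted p = 0.0698 to 0.0878), whereas the fall within COL was called in every setting (log2 fold change -0.90 to -0.72 without any 1 library).

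Gata4 was not called in any comparison of on with off as fitted. In SI, its log2 fold changes were 0.05, -0.21 and 0.07 in BRAF, p53 and BRAFp53 organoids, with SEs of 0.10. In the COL BRAF culture it had 49.4 and 42 CPM off and 34 and 32.1 CPM on (log2 fold change -0.47 with an SE of 0.49, edgeR adjusted p = 0.571), in a fit in which all COL cultures share an estimate of the spread. When the COL BRAF libraries were fitted alone, it passed (-0.45, edgeR adjusted p = 0.0281). In the COL p53 and BRAFp53 cultures Gata4 stood at 0.293 to 2.67 CPM in all 8 libraries, and no direction was read at such levels. Without COL BRAFp53 on replicate 1, which had 2.04 CPM against 0.293 CPM in the other on library, its log2 fold change in that culture was -2.89 (edgeR adjusted p = 0.00587) instead of -0.87 (edgeR adjusted p = 0.331), and without on replicate 2 it was -0.10 (edgeR adjusted p = 0.936). With no filter on low counts the values of both cultures passed (-0.86 in BRAFp53 and -1.55 in p53 organoids, edgeR adjusted p = 0.00317 and 1.49e-06).

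The caudal factors did not pass the test in any arm. Cdx2 had 63.5 and 48.2 CPM off and 57.5 and 51.5 CPM on in SI BRAF organoids, 40.4 and 46.8 CPM off and 38.9 and 44.4 CPM on in SI BRAFp53 organoids, 113 and 122 CPM off and 130 and 144 CPM on in COL BRAF organoids, and 101 and 121 CPM off and 115 and 99.9 CPM on in COL BRAFp53 organoids. On and off overlapped in 3 of these 4 arms. The log2 fold changes were -0.08 (SE 0.15), -0.10 (SE 0.16), 0.22 (SE 0.13) and -0.04 (SE 0.13), none past the test (edgeR adjusted p = 0.263 to 0.851). Cdx1 had log2 fold changes of -0.22 (SE 0.11), -0.07 (SE 0.11), 0.21 (SE 0.17) and -0.33 (SE 0.17) in the same order (edgeR adjusted p = 0.149 to 0.766). In p53 organoids, Cdx2 changed by -0.37 (SE 0.15, edgeR adjusted p = 0.905) in SI and -0.21 (SE 0.13, edgeR adjusted p = 0.728) in COL. With 2 libraries per group, changes of the size of these SEs could not be detected.

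In the other comparisons of on with off not yet given, Gata6 had log2 fold changes of -0.08 (SI BRAF), 0.11 (SI p53), -0.09 (SI BRAFp53) and 0.02 (COL p53). Cdx1 had -0.22 in SI p53 and 0.11 in COL p53 organoids, and Hnf4a -0.04 and -0.27. Klf5 had -0.23 in SI p53, -0.01 in SI BRAFp53 and 0.13 in COL p53 organoids, Klf4 0.25 in SI p53 and Gata4 -1.55 in COL p53 organoids. These values had edgeR adjusted p of 0.49 to 1.0.

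The same held for most differences of responses. For BRAFp53 less BRAF in SI, the members other than Hnf4g had log2 differences of -0.05 (Hnf4a) to 0.15 (Cdx1), with edgeR adjusted p of 0.63 to 0.982. In COL the members other than Gata6 had log2 differences of -0.64 (Klf4) to 0.17 (Hnf4g), with edgeR adjusted p of 0.24 to 0.991. For COL less SI, the members not called had log2 differences of -0.56 (Gata4) to 0.38 (Cdx1) for the BRAF response and of -0.97 (Gata4) to 0.28 (Klf5) for the BRAFp53 response, with edgeR adjusted p of 0.127 to 1.0. The Gata4 value of -0.97 was -3.00 without COL BRAFp53 on replicate 1 and -0.22 without on replicate 2 (edgeR adjusted p = 0.00169 and 0.904), and it passed with no filter on low counts (-0.89, edgeR adjusted p = 0.00909).

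The comparison of the p53 responses between tissues called 0.117% of all genes and 0 members by edgeR, DESeq2 or limma-voom, with 4 members (Gata4, Hnf4g, Klf4 and Klf5) at an unadjusted edgeR p under 0.05. For Gata4, Hnf4g and Klf4 the log2 differences, COL less SI, were -1.33 (SE 0.62), -0.69 (SE 0.28) and -0.76 (SE 0.27), with edgeR adjusted p of 0.439 to 0.629, and the other members had -0.23 (Hnf4a) to 0.36 (Klf5). With no filter on low counts these 3 values passed, as did the COL p53 changes of the same genes (adjusted p = 1.49e-06 to 0.0341).

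Beside the factors, known targets of each were read from fixed lists, which were put together with earlier results of these data known. Their counts and medians, and the values and tests of single genes, are therefore given as a description only. Of 9 HNF4 targets, which include apolipoprotein genes, 8 were higher in SI BRAF organoids and 0 lower, with a median log2 fold change of 2.03 against -0.06 over all genes tested, of which 31.7% were called in either direction. Apoa4 rose from 316 to 2730 CPM (log2 fold change 3.06 with an SE of 0.17), Apoa1 from 2970 to 20700 CPM (2.75, SE 0.13), and Apob by 2.56 on the log2 scale. Of the exon bases of Apoa4, 69.8% are shared with genes on the other strand, whose reads cannot be told apart from its own without strand, and of those of Mttp 9.49%. These 8 kept their call without any 1 of the 12 SI libraries, with Npc1l1 nearest to the threshold (edgeR adjusted p up to 0.00591). In SI BRAFp53 organoids 5 of the 9 were higher and 0 lower (median 0.53), led by Apoa4 (1.67), Apob (1.18) and Mttp (0.89, which Apoa1 matched), and 8 of the 9 had a response that was lower than in SI BRAF organoids by the test of the difference (median -1.38), where the shares of all genes called were 11.5% and 8.2%. In SI p53 organoids 0 were called.

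COL organoids differed from this. In COL BRAF organoids 2 HNF4 targets were higher (Fabp2, 1.60, and Apob, 1.40) and 1 lower (Apoc3, -1.44), in COL BRAFp53 organoids 2 were higher (Creb3l3, 2.09, and Fabp2, 1.39) and 3 lower (Apoc3, -3.85, Mttp, -1.39, and Apoa1, -1.37), and in COL p53 organoids 2 were lower (Apoc3, -2.21, and Apoa1, -1.85). Of all genes, 19.9%, 17.7% and 0.142% were called in these 3 arms. In off cultures 8 of the 9 were lower in COL (median log2 fold change -4.09, all genes 0.08, with 29.6% of them called). The BRAF response of 7 of the 9 was lower in COL than in SI by the test of the difference and of 0 higher (median -2.56), with 10.7% of all genes called. The comparisons share libraries with one another, and whether Hnf4g and these targets are linked was not tested.

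**Figure D4:**
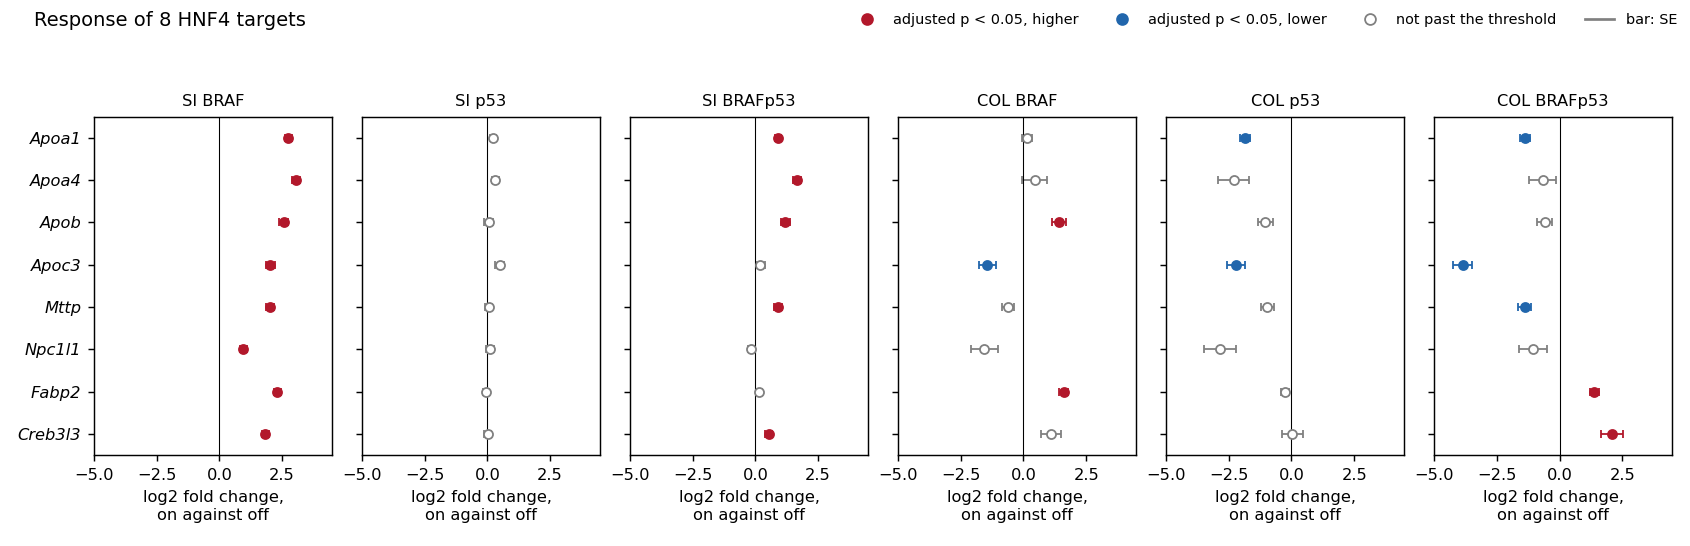
Log2 fold change of on against off (dot) with its SE (bar) of 8 of the 9 HNF4 targets, without 1 that was not called in any of these comparisons, one panel per tissue and genotype, with colours as in the plot of factor responses. In SI BRAF the 8 plotted are red, in SI BRAFp53 5 of them and in SI p53 none. In COL, the BRAF panel holds 2 red dots and 1 blue, the BRAFp53 panel 2 red and 3 blue, and the p53 panel 2 blue.

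Of 11 CDX targets, 6 were higher and 3 lower in COL BRAF organoids (median log2 fold change 0.54, all genes -0.01), 4 higher and 2 lower in COL BRAFp53 organoids (median 0.54), 7 higher and 1 lower among 10 tested in SI BRAF organoids (median 1.18) and 4 higher and 1 lower in SI BRAFp53 organoids (median 0.17). The shares of all genes called, in either direction, were 19.9%, 17.7%, 31.7% and 11.5% in the same order. The goblet cell mucin Muc2 (log2 fold changes 1.67 to 3.43) and Krt20, a keratin of differentiated surface cells (1.34 to 2.65), rose in each of the 4 arms. Genes of the list that fell were Sis in COL (-0.98, -2.00 and -2.40 in BRAF, p53 and BRAFp53 organoids), Mep1a, a brush-border protease, in SI BRAF, SI BRAFp53 and COL BRAFp53 organoids (-1.27 to -0.75), and Amacr and Gucy2c in COL BRAF organoids (-1.05 and -0.42). Cdx1 and Cdx2 were not called in these arms.

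Of the GATA4 regional targets, Lct and Fabp1 are genes that GATA4 activates and Slc10a2 and Fabp6, the ileal bile acid transporter and binding protein, are genes that it represses. All 4 were higher in SI BRAF organoids (median log2 fold change 2.83, all genes -0.06, with 31.7% of them called), where Gata4 did not change past the test. Slc10a2 rose from 1.16 to 53.6 CPM (5.53, SE 0.61), Fabp6 from 2.32 to 59.6 CPM (4.62, SE 0.30) and Fabp1 from 3730 to 7860 CPM (1.03, SE 0.17). In SI BRAFp53 organoids Slc10a2 was called higher, from 0.00977 CPM, which is under the limit of detection, to 1 CPM, and Lct fell from 19.3 to 3.71 CPM (-2.43, SE 0.17), with 11.5% of all genes called. In COL BRAF organoids Slc10a2 rose from 10.7 to 56.1 CPM (2.39, SE 0.29), and Fabp1, which was at most 0.58 CPM in the other COL cultures, fell from 90.4 and 84.3 CPM to 6.78 and 7.49 CPM (-3.62, SE 0.25, edgeR adjusted p = 7.26e-06), with 19.9% of all genes called. The 4 calls in SI BRAF organoids held without any 1 SI library, with Lct nearest to the threshold (edgeR adjusted p up to 0.0136). Both genes that GATA4 activates and both that it represses thus rose in SI BRAF organoids.

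Of 5 KLF targets, the cell cycle inhibitor Cdkn1a was higher in all 4 BRAF arms (log2 fold changes 1.02 to 1.65) and the enterocyte phosphatase Alpi in SI BRAF and BRAFp53 organoids (1.64 and 1.17). The cell cycle genes Cdk1 and Ccnb1 fell in COL BRAF organoids (-0.81 and -0.74), and Cdk1 and Ccnd1 in SI BRAF organoids (-0.79 and -0.65, of which Cdk1 lost its call without a single library, with an edgeR adjusted p up to 0.0915). In either direction 3 of 5 were called in COL BRAF, 1 in COL BRAFp53, 4 in SI BRAF and 2 in SI BRAFp53 organoids, against 19.9%, 17.7%, 31.7% and 11.5% of all genes. The test of BRAFp53 less BRAF responses called 1 of the 5 in SI by edgeR (Ccnd1, higher in BRAFp53) and did not show a difference for the others or in COL. Of the exon bases of Ccnd1, 23.4% are shared with a gene on the other strand. Cdkn1a is also a target of p53.

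Other genes of the same families were examined next. Of 20 CDX, GATA and KLF genes outside the list of 8, 14 were tested in COL and 12 in SI. In COL BRAF organoids 2 were higher and 0 lower (Klf6 and Klf3), in COL BRAFp53 organoids 2 and 0 (Klf6 and Gata3), in SI BRAF organoids 5 and 1, in SI BRAFp53 organoids 1 and 0 (Klf6), and 0 in p53 organoids. In COL these counts do not exceed the shares of all genes called (19.9% in BRAF and 17.7% in BRAFp53 organoids), and in SI those shares were 31.7% and 11.5%. Klf6 was the one that rose in all 4 BRAF arms. It had 85 and 122 CPM off and 391 and 350 CPM on in COL BRAF organoids (log2 fold change 1.84 with an SE of 0.19, edgeR adjusted p = 7.1e-05), 162 and 144 CPM off and 394 and 313 CPM on in COL BRAFp53 organoids (1.21, SE 0.18, edgeR adjusted p = 0.00103), 73.3 and 76.6 CPM off and 181 and 226 CPM on in SI BRAF organoids (1.39, SE 0.13, edgeR adjusted p = 5.35e-06), and 65.2 and 52 CPM off and 110 and 117 CPM on in SI BRAFp53 organoids (0.92, SE 0.13, edgeR adjusted p = 0.000463). In each arm both on libraries were above both off libraries, and the COL p53 culture had the highest off level (265 and 276 CPM). In SI BRAF organoids Gata5 rose from 20.8 to 36.4 CPM (0.76, SE 0.20, edgeR adjusted p = 0.0104), and Gata3 stood at 0.0848 CPM off and 0.603 CPM on in COL BRAFp53 organoids.

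Of 20 partner regulators, factors that act with the members in gut epithelium, 3 were higher and 5 lower in COL BRAF organoids, 2 and 4 in COL BRAFp53 organoids, 5 and 6 in SI BRAF organoids, 2 and 2 in SI BRAFp53 organoids, and 0 in p53 organoids. Against the shares of all genes called (19.9%, 17.7%, 31.7% and 11.5%), the medians of the list were -0.09, -0.06, 0.03 and 0.12 on the log2 scale. Nr5a2, a nuclear receptor of crypt cells chosen after its values were seen, fell in all 4 BRAF arms (log2 fold changes -1.36 to -0.48). Ppara, a receptor for fatty acids, fell in both COL arms (-1.27 and -1.86), and Sox9, a factor of crypt stem and Paneth cells, fell in SI BRAF (-1.47) and COL BRAFp53 organoids (-0.78). Maf rose in COL BRAF (1.51) and SI BRAF organoids (2.54), and Creb3l3 in SI BRAF (1.83), SI BRAFp53 (0.53) and COL BRAFp53 organoids (2.09).

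Because CDX2 opposes gastric fates, 12 gastric genes were read beside it. Of 6 that passed the filter in COL, 3 were higher in BRAF and 4 in BRAFp53 organoids, with 0 lower. Anxa10 and Vsig1 were among them in both arms, and Ctse in BRAFp53 organoids. In SI, 1 of 7 was higher in BRAF organoids (Anxa10) and 3 in BRAFp53 organoids. Beside Anxa10 these were Ctse (2.44 CPM on) and Vsig1 (0.919 CPM on), which were listed at 0 in the off libraries of that culture, so that they passed the filter through their on libraries and could only be called higher. Muc5ac, Tff1, Tff2 and Gkn1, also on this list, were at or under 0.51 CPM in every library. Sox2, the gastric counterpart of CDX2, and Gkn2 were listed at 0 in the off cultures of both tissues, and Anxa10 rose in all 4 arms (log2 fold changes 2.99 to 5.39). Epithelial markers moved in the same arms, with 5 of 6 higher in COL BRAF, COL BRAFp53 and SI BRAF organoids and 4 of 6 in SI BRAFp53 organoids. Of all genes, 19.9%, 17.7%, 31.7% and 11.5% were called in COL BRAF, COL BRAFp53, SI BRAF and SI BRAFp53 organoids. The part of these markers in the results above was not tested.

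Finally, the genes whose log2 CPM followed a factor most closely over the 24 libraries were listed, as a description, since the libraries share tissue, culture and induction. These were Baiap2l2 for Cdx1 (r = 0.986), Evl for Cdx2 (0.946), Thra for Gata4 (0.976), Acot1 for Gata6 (0.962), Cdkn1a for Hnf4a (0.877), Slc26a6 for Hnf4g (0.983), Hist1h1c for Klf4 (0.954) and Bag6 for Klf5 (0.917). Over the 12 SI libraries the closest gene to Klf4 was Gramd1b (0.992), and over the 12 COL libraries the closest to Gata4 was Hkdc1 (0.99). Baiap2l2 was among the 3 closest to Cdx1 in SI (0.912), in COL (0.987) and over all libraries. Among the members themselves, Gata6 and Hnf4g (0.896) and Gata4 and Cdx1 (0.88) had the highest r over 24 libraries, and Hnf4g and Cdx2 the lowest (-0.882).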

How the data were processed

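RNA-seq counts were analysed for 24 organoid libraries in 12 groups of 2. Reads had been trimmed with Trimmomatic 0.36 and aligned with STAR 2.5.2b, per the submitters' processing notes, to mm10 per the methods. The deposited tables hold the authors' raw counts per Ensembl gene, not normalized. The release of the annotation and the handling of strand are not given in the sources used here. Symbols and exon lengths were taken from GENCODE M21 (GRCm38), which matched 45143 of 45706 identifiers. Total counts and the limit they set are given in the report.

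Counts were filtered with filterByExpr, scaled by TMM and tested with edgeR 4.0.16 in R 4.3.3 (quasi-likelihood F-test, BH-adjusted p under 0.05), with 12 libraries per tissue for on against off and for BRAFp53 against BRAF responses, 24 libraries for COL less SI responses, and off libraries summed per culture for the tissues. SEs were derived from the log2 fold change and F. CPM were scaled by TMM over 24 libraries, and RPKM were CPM per kb of exon. Libraries of a group come from 1 culture, so that p-values measure the spread between libraries, which may be technical. Alternatives were RLE size factors, other filters, DESeq2 1.42.0, limma-voom 3.58.1, a replicate block, the compared cultures alone, a genotype block for the tissues, and leaving out each library or culture. The fits were tested on simulated data. Same-numbered off and on libraries did not deviate together (r = -0.0286 to 0.0421 in 6 cultures).

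The 8 factors and the lists (CDX, HNF4, KLF and GATA4 regional targets, family members, partner regulators, gastric genes, and epithelial, stromal and immune, small intestine and colon markers) were chosen with earlier results of these data known. All 8 factors were to be reported in every comparison, some of them as a range. From each other list the counts called and at most 3 called genes in each direction, those of largest absolute change among genes with an average log2 CPM of at least 1, were to be named, and so were the 3 genes of highest r per factor, of which the first is printed. Other genes named were chosen after their values were seen. Results on some listed genes are not reported here.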

Additional observations from a re-analysis of the deposited data

Results flagged for a closer look

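Differences between cultures under the same contrast were found for 3 factors by the test of the difference itself (edgeR, adjusted over all genes). The response of Hnf4g to induction was lower in SI BRAFp53 than in SI BRAF organoids (log2 difference -1.16). Its BRAF response was lower in COL than in SI (-1.63). The response of Klf4 was lower in COL than in SI in BRAF organoids (-0.89) and in BRAFp53 organoids (-1.61). The BRAFp53 response of Gata6 was lower in COL than in SI (-0.76). With a replicate block, this value and the -0.89 of Klf4 were not called. The -0.89 was also not called in limma-voom or with the compared cultures alone. The values of -1.16, -0.89 and -0.76 lost their call without single libraries (edgeR adjusted p up to 0.0669, 0.216 and 0.0878). Tissue, dose, medium, day and culture cannot be told apart in the differences between tissues, nor genotype and culture in the difference within SI. Donor sex differs too within SI and between the BRAFp53 cultures of the tissues.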

How the results depend on the processing

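Of 96 member values (8 factors in 12 comparisons), 15 were called and 8 of these kept their call under every setting. No called value changed sign, and 64 values were never called. Counts of members called are given in the order COL BRAF, COL p53, COL BRAFp53, COL BRAFp53 less BRAF, SI BRAF, SI p53, SI BRAFp53, SI BRAFp53 less BRAF, BRAF COL less SI, p53 COL less SI, BRAFp53 COL less SI, and COL against SI. They were 2, 0, 1, 0, 3, 0, 1, 1, 2, 0, 2 and 3 as reported. RLE size factors changed only the last, to 4. With no filter on low counts they were 2, 3, 3, 1, 2, 0, 1, 1, 2, 3, 3 and 4. With a minimum of 10 counts in every library they were 2, 0, 2, 1, 3, 0, 1, 1, 2, 0, 2 and 4, with DESeq2 2, 0, 3, 1, 3, 0, 1, 1, 2, 0, 2 and 5, and with limma-voom 2, 0, 1, 0, 3, 0, 1, 1, 1, 0, 2 and 5. With the compared cultures alone they were 4, 0, 1, 0, 2, 0, 1, 1, 1, 0 and 2, and a genotype block gave 4 for the tissues. Replicate numbers did not pair the libraries. With a replicate block the counts were 2, 0, 1, 0, 2, 0, 1, 1, 1, 0, 1 and 7. For the last of these, COL against SI, the off libraries were fitted singly and not summed per culture. Libraries of a culture thus counted as replicates there, which they are not for a comparison of tissues. Without any 1 library or culture they ranged from 0 to 2, 0 to 0, 1 to 2, 0 to 0, 2 to 3, 0 to 0, 1 to 1, 0 to 1, 1 to 2, 0 to 0, 1 to 3 and 2 to 5.

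Over all genes, COL p53 calls went from 27 to 569 with no filter and 324 with DESeq2, SI p53 calls from 0 to 155 and 65, COL BRAFp53 less BRAF calls from 172 to 1312 and 1364 (391 with the minimum of 10 counts, 17 with the replicate block, 1 with the compared cultures alone), p53 COL less SI calls from 23 to 488 and 162, BRAFp53 COL less SI calls from 693 to 1548 and 1580, and COL against SI calls from 5270 to 7981 with the replicate block and 3475 with the genotype block. The replicate block of COL against SI took the off libraries singly, so that libraries of a culture counted as replicates, and its count is not comparable with the others. The cause of the other changes was not tested.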

Other observations

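The remaining marker lists were read in the same fits, in which 19.9% (COL BRAF), 17.7% (COL BRAFp53), 0.142% (COL p53), 31.7% (SI BRAF), 11.5% (SI BRAFp53) and 0% (SI p53) of all genes were called. Of the colon markers, 3 of 6 tested were higher in COL BRAF organoids (Aqp8, Car4 and Car1), 1 in COL BRAFp53 organoids (Car1) and 0 in COL p53 organoids, with 0 lower. In SI, 3 colon markers passed the filter on low counts, of which Car4 was higher in BRAF organoids and Car4 and Aqp8 were lower in BRAFp53 organoids. Some of these levels were low. Aqp8 had 0.133 CPM off and 1.9 CPM on in COL BRAF organoids, and Car4 0.858 CPM off and 0.123 CPM on in SI BRAFp53 organoids. Of 6 small intestine markers tested in SI, Fabp6, Apoa4 and Lct were higher and the Paneth cell genes Lyz1 and Defa24 lower in BRAF organoids, and in BRAFp53 organoids Apoa4 and Defa24 were higher and Lct lower. In COL 0 of 5 small intestine markers were called in any on against off comparison by edgeR. Of the stromal and immune markers, 7 passed that filter in COL and 1 in SI, and 0 were called by edgeR.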
